A study of Mus musculus with 6 samples.

Results

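The antioxidant enzymes and metallothioneins described here are 10 genes of the mouse cerebral cortex, chosen by symbol from the 55421 genes of the deposited tables: Sod1, Sod2, Cat, Gpx1, Gpx4, Prdx6, Nqo1, Hmox1, Mt1 and Mt2. RNA-seq was performed on the cortices of 6-month-old mice (mice 10, 11 and 17) and 24-month-old mice (mice 2, 4 and 5), 1 library per mouse and 3 mice per age. All were wild-type C57BL/6J males that carried no transgene and received no drug other than isoflurane, given before cervical dislocation. The comparison asks how the cortical level of each mRNA differed between adult and old mice.

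These genes act in sequence on reactive oxygen. Superoxide dismutases convert superoxide into hydrogen peroxide, and catalase, glutathione peroxidases and peroxiredoxins then reduce hydrogen peroxide or the lipid peroxides that form from it. Nqo1 and Hmox1 are inducible enzymes that remove quinones and haem and are classical targets of the transcription factor Nfe2l2, while the metallothioneins Mt1 and Mt2 are small cysteine-rich proteins that bind zinc and copper and, in the brain, are made mainly by astrocytes.

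The metallothionein promoters carry the sequence feature that sets these genes apart in textbooks, the metal response element bound by the zinc-sensing factor Mtf1. Its core, TGCACNC or TGCGCNC, was searched on both strands in RefSeq windows of 300 bases (250 before and 50 after the annotated start, build GRCm38.p6), which were found for 8 of the 10 genes. The sites are shown because both metallothioneins carry several of them; capitals mark the core, each line runs 5′ to 3′ on the gene's strand, and a core read from the other strand appears as its reverse complement.
Mt1, chr8:94179058-94179080, plus strand: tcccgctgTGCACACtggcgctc
Mt1, chr8:94179083-94179105, plus strand: gggagctcTGCACTCcgcccgaa
Mt1, chr8:94179101-94179123, plus strand: ccgaaaagTGCGCTCggctctgc
Mt2, chr8:94172387-94172409, plus strand: atcgcctcTGCACCCggcccctc
Mt2, chr8:94172482-94172504, plus strand: agacccttTGCGCTCagctcctt
Mt2, chr8:94172560-94172582, plus strand: gggagggcGTGTGCAggctctgt
Mt2, chr8:94172614-94172636, plus strand: ttcgggtcGTGCGCAggcccagg

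The Mt1 window held 3 such cores, whose first bases lie at -23, 3 and 21 from the annotated start. The Mt2 window held 4, at -223, -128, -50 and 5. Positive positions lie after the start. The windows of Sod1, Sod2, Cat, Gpx1, Gpx4 and Nqo1 held none. Of 32851 windows, 25.7% held at least 1 core, 1.97% at least 3 and 0.517% at least 4. The antioxidant response element core TGACNNNGC, the sequence through which Nfe2l2 acts, was present in 12.4% of windows and among these genes only in those of Sod1 and Mt2. It is capitalised in the following lines, and in Mt2 its letters include those of an AP-1 site (TGACTCA).
Sod1, chr16:90220698-90220722, plus strand, core on the other strand: caaggtggGCGTGGTCAgactcagg
Mt2, chr8:94172531-94172555, plus strand: agggggtgTGACTCAGCgcgggggg
A match of letters is a description of the window and not evidence of binding, and a window without a match says nothing of sites elsewhere. Prdx6 and Hmox1 had no window in the table.

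The libraries held 29495379 to 36494240 counts. The 24-month-old cortices differed from the 6-month-old ones across the whole table, with 40208 to 43561 genes detected against 33974 to 35651. Levels are therefore given as CPM, counts divided by library size, with TMM library sizes, a scaling that assumes most genes are equal between libraries, and differences as log2 fold changes of 24 against 6 months. On this scale the 15761 genes with a mean of at least 1 CPM had a median difference of -0.14, which became 0.05 when libraries were scaled by their totals alone, so the difference of each of the 10 genes is also given relative to that median. Markers of neurons, astrocytes, oligodendrocytes, microglia and endothelial cells were detected in every library. Each marker list contained 5 or 6 genes, and none of these was at 0. The 5 neuronal markers summed to 7824 to 9159 CPM at 6 months and 5774 to 7563 CPM at 24 months, without overlap under TMM scaling, with Syt1 called lower. Most of that sum was Snap25 and Syt1, with means of 5161 and 2165 CPM at 6 months. Relative to the median gene the neuronal markers ran from -0.25 for Syt1 to 0.09 for Slc17a7. Among single genes of at least 1 CPM, 32.5% were lower without overlap on this scale. In the oligodendrocyte markers 24-month-old mouse 2 stood apart, with 564 CPM of Mbp against 1428 and 1975 CPM in mice 4 and 5. The part of either in the lower values of Gpx1, Cat, Txn1 and Mtf1 given later was not tested.

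The mRNA of 9 of the 10 genes passed the test at neither 1% nor 10% FDR (false discovery rate), and the remaining gene, Gpx1, was lower at 24 months at 10% FDR under TMM scaling. No member was called at 1% FDR by edgeR's quasi-likelihood test, where 0 of 32905 genes tested were called, and the likelihood ratio, exact, DESeq2 and limma tests also called 0 members. The paper, in contrast, reports many genes at 1% FDR from the same libraries, most of them up-regulated. It used edgeR after a gene filter, without naming the test within edgeR, and the cause of the contrast was not tested. Calls are given at 10% FDR because the quasi-likelihood test gave none at 1%. At 10% FDR 1 member was called lower and none higher, against 17.3% lower, 2.43% higher and 19.7% in all among genes of at least 1 CPM (8.33% lower, 10.0% higher and 18.4% in all among every gene tested). Unadjusted p-values were under 0.05 for 2 members, Cat and Gpx1, against 31.1% of genes of at least 1 CPM. The median log2 fold change of the 10 genes was -0.03, or 0.12 relative to the median of genes of at least 1 CPM, and 4 of the 7 negative values, those of Sod2, Gpx4, Prdx6 and Mt1, were positive under library totals. The 95% intervals, which assume TMM scaling, reached at their outermost 0.673-fold for Hmox1 and 1.38-fold for Nqo1.

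**Figure D1:**
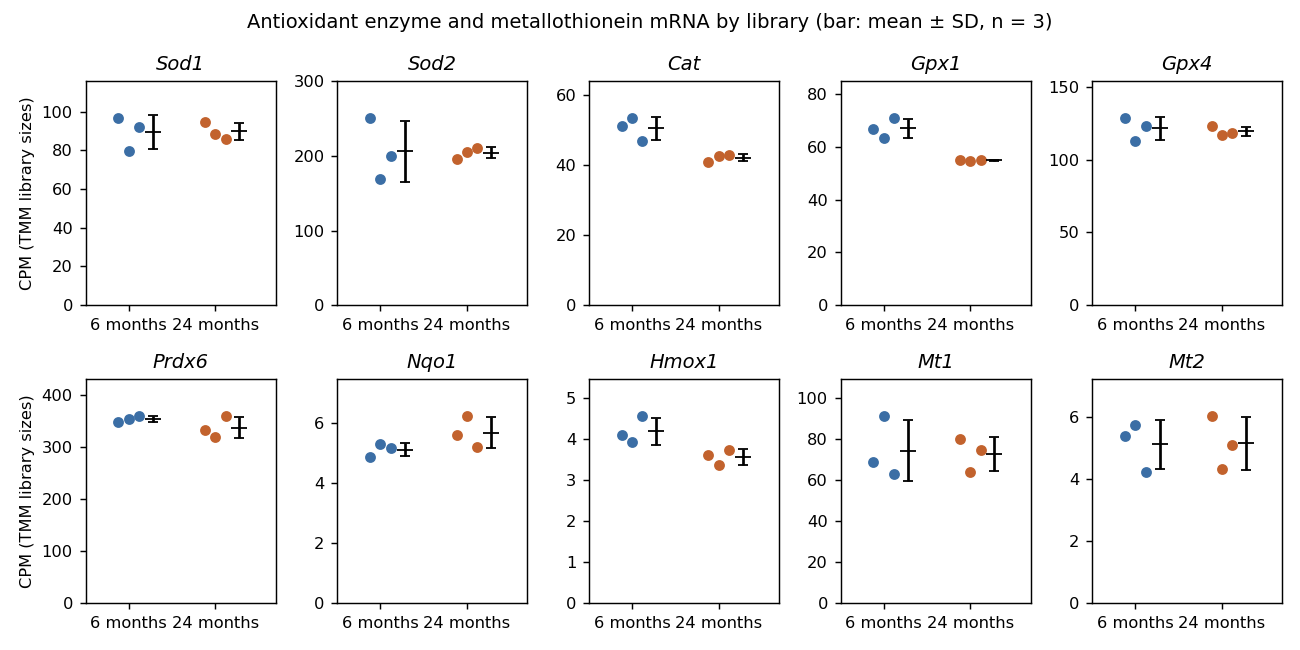
Level of each gene in CPM with TMM library sizes (y axis, from 0), 1 point per library, with mean ± SD of the 3 mice of each age beside the points. Cat, Gpx1 and Hmox1 show all 24-month-old mice under all 6-month-old mice on this scale, as do 32.5% of genes of at least 1 CPM. None of the 3 does so when libraries are scaled by their totals. On the plotted scale the other 7 genes overlap between ages.

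Sod1 (ENSMUSG00000022982.10, GRCm38 chr16:90220754-90226329), the copper and zinc superoxide dismutase of the cytosol, was measured at 96.5, 79.8 and 91.9 CPM in 6-month-old mice 10, 11 and 17 and at 94.7, 88.6 and 86.0 CPM in 24-month-old mice 2, 4 and 5, the order kept for all genes that follow. All 24-month values lay within the 6-month range. The means were 89.4 ± 8.60 (SD, n = 3) and 89.8 ± 4.49 (n = 3), a log2 fold change of 0.01 (95% interval -0.22 to 0.23; adjusted p = 0.977, edgeR's quasi-likelihood test with Benjamini-Hochberg adjustment over all genes tested, as for each adjusted p below), or 0.15 relative to the median gene.

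Sod2 (ENSMUSG00000006818.5, chr17:13006846-13040063), the manganese enzyme of mitochondria, stood at 250.2, 169 and 199 CPM at 6 months and 196, 205 and 211 CPM at 24 months. The younger group held both the highest and the lowest mouse, and the older mice lay between them. The log2 fold change was -0.02 (-0.31 to 0.28; adjusted p = 0.953; 0.18 under library totals), or 0.13 relative to the median gene, and leaving out single libraries moved it between -0.10 and 0.15. The ratio of Sod1 to Sod2 counts, which no library scaling can change, was 0.439 ± 0.0469 at 6 months and 0.441 ± 0.0382 at 24 months (SD, n = 3 each), with overlapping mice.

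Gpx1 (ENSMUSG00000063856.7, chr9:108338903-108340343), the abundant selenium-dependent peroxidase that reduces hydrogen peroxide with glutathione, had 66.7, 63.6 and 70.8 CPM at 6 months and 55.1, 54.8 and 55.1 CPM at 24 months. Every 24-month-old mouse lay below every 6-month-old mouse, as in 32.5% of genes of at least 1 CPM. Mean CPM was 67.0 ± 3.64 and 55.0 ± 0.142 (SD, n = 3 each), and Gpx1 fell by 0.29 on the log2 scale (SE 0.09; adjusted p = 0.0776), of which 0.14 remained below the median gene (interval of the relative difference -0.34 to 0.06). The call was kept with RLE size factors and without 24-month-old mouse 5, and was lost without any other single library and under the other scalings, tests and filters run, with adjusted p from 0.0776 to 0.510 over the settings with all 6 libraries. The spread of the old mice, a coefficient of variation of 0.258%, was smaller than the 2.32% that counting error alone gives.

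Cat (ENSMUSG00000027187.10, chr2:103453849-103485160), the peroxisomal catalase, had 51.3, 53.3 and 46.9 CPM at 6 months and 41.0, 42.7 and 42.8 CPM at 24 months. All old mice lay below all young mice on this scale, as in 32.5% of genes of at least 1 CPM. They did so too in TPM, a level per exonic length, as in 17.3% of such genes, and the ages overlapped with library totals. The log2 fold change was -0.26 (-0.47 to -0.05; adjusted p = 0.106), just outside the 10% threshold that Gpx1 passed, and -0.12 relative to the median gene. Red blood cells are rich in both catalase and Gpx1 protein, and the summed level of 5 red blood cell markers was 77.1 to 98.4 CPM at 6 months and 57.0 to 80.1 CPM at 24 months, with 1 of the 5 (Hbb-bt) called lower; its part in these values was not tested. In bulk tissue fewer cells of a type and less RNA per cell cannot be told apart.

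Gpx4 (ENSMUSG00000075706.10, chr10:80047166-80056439), which reduces lipid peroxides within membranes and protects cells from ferroptosis, had 128, 113 and 123 CPM at 6 months and 123, 117 and 119 CPM at 24 months. The older mice lay inside the 6-month range. The log2 fold change of -0.02 (-0.22 to 0.17; adjusted p = 0.877) turned positive under library totals (0.17) and was 0.12 relative to the median gene. The pseudogene copy Gpx4-ps2 drew 342 to 405 counts per library against 3903 to 4045 for Gpx4, so reads that both could hold are a limit to its level.

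Gpx1 and Gpx4 compared within each library gave a difference that does not depend on scaling. Counts of Gpx1 were 0.520, 0.562 and 0.576 of those of Gpx4 at 6 months and 0.448, 0.469 and 0.465 at 24 months. The ratio was lower in all 3 older mice, with means of 0.553 ± 0.0296 and 0.461 ± 0.0109 (SD, n = 3 each). The pair was set side by side after the values were known, so no test is given. The share of all gene pairs whose ratio separates the ages was not counted. Reads that Gpx4 and Gpx4-ps2 could both hold are a limit to this ratio too.

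Prdx6 (ENSMUSG00000026701.15, chr1:161240112-161251219), a peroxiredoxin that also repairs oxidised phospholipids, had 348, 353 and 359 CPM at 6 months and 333, 319 and 359 CPM at 24 months. Mice 2 and 4 lay below the 6-month range and mouse 5 just above it. Its difference on the log2 scale was -0.07 (-0.26 to 0.12; adjusted p = 0.604) and was positive, at 0.12, under library totals and, at 0.075, relative to the median gene.

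Nqo1 (ENSMUSG00000003849.8, chr8:107388225-107403206), the quinone reductase, was counted 150, 182 and 169 times at 6 months and 181, 215 and 177 times at 24 months, or 4.87, 5.27 and 5.16 CPM against 5.58, 6.22 and 5.20 CPM. Only mouse 5 of the older group lay inside the 6-month range. A log2 fold change of 0.15 (-0.17 to 0.47; adjusted p = 0.488) kept its sign under every scaling, test and filter run (0.15 to 0.34) and without each library in turn (0.09 to 0.22), without passing the test under any of them. Relative to the median gene it was 0.29. Reads on 1545 sensory receptor genes were denser in the old libraries. At the exonic length of Nqo1 that density gives 0.0347 to 0.0389 CPM at 6 months and 0.0827 to 0.133 CPM at 24 months. Mean Nqo1 was 5.10 CPM at 6 months and 5.67 CPM at 24 months, and the part of that density in the difference was not tested. The paper reports sensory perception as a main process of its up-regulated genes. Whether the reads on these receptor genes are background or expression was not tested.

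Hmox1 (ENSMUSG00000005413.8, chr8:75093621-75100589), the inducible haem oxygenase that releases iron, carbon monoxide and biliverdin, was counted 126, 135 and 149 times at 6 months and 117, 116 and 127 times at 24 months, or 4.09, 3.91 and 4.55 CPM against 3.61, 3.35 and 3.73 CPM. The old mice were all below the young in CPM with TMM sizes, as in 32.5% of genes of at least 1 CPM, and the ages overlapped in TPM and with library totals. On the log2 scale the difference was -0.23 (-0.57 to 0.11; adjusted p = 0.324), or -0.087 relative to the median gene. Between these inducible enzymes, the count of Nqo1 was 1.19, 1.35 and 1.13 times that of Hmox1 at 6 months and 1.55, 1.85 and 1.39 times at 24 months, so that the old mice lay above the young without overlap (1.22 ± 0.111 and 1.60 ± 0.234, SD, n = 3 each). This pair too was chosen with the values known, no test is given, and the share of other pairs that separate the ages was not counted. The nearest mice of the 2 ages were mouse 11 at 1.35 and mouse 5 at 1.39, a gap smaller than counting error. Counting alone gives coefficients of variation of 7.74% and 7.24% for Nqo1 and 8.55% and 9.13% for Hmox1 at 6 and 24 months.

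**Figure D2:**
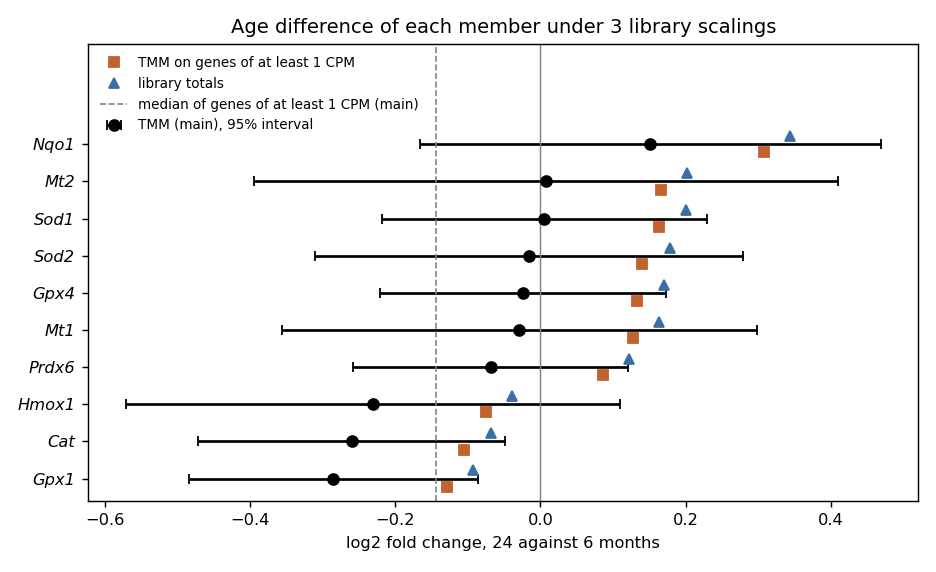
Log2 fold change of each gene at 24 against 6 months (x axis) with TMM scaling and its 95% interval (black), TMM computed on genes of at least 1 CPM (orange) and library totals (blue). The dashed line is the median of genes of at least 1 CPM, -0.14, under TMM scaling. The other scalings move all 10 genes to the right, and Sod2, Gpx4, Mt1 and Prdx6 change from negative to positive.

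Scaling decided which genes separated the ages. With TMM sizes 3 of 10 genes (Cat, Gpx1 and Hmox1) were lower without overlap, against 32.5% of genes of at least 1 CPM, and none was higher, against 5.32%. With library totals none was lower, against 9.36%, and 4 (Sod1, Gpx4, Prdx6 and Nqo1) were higher, against 15.2%. In TPM, Cat and Gpx1 were lower, against 17.3% of such genes, and Nqo1 was higher, against 10.0%. The order of the 10 genes by log2 fold change was the same with TMM sizes and library totals, with Nqo1 at the upper end and Hmox1, Cat and Gpx1 at the lower end.

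Mt1 (ENSMUSG00000031765.8, chr8:94179082-94180327) and Mt2 (ENSMUSG00000031762.7, chr8:94172664-94173568) lie side by side, and mice of the same age differed more than the means of the ages did. Mt1 had 68.8, 91.2 and 62.8 CPM at 6 months and 79.9, 63.7 and 74.8 CPM at 24 months. Mt2 had 5.38, 5.77 and 4.25 CPM at 6 months and 6.04, 4.34 and 5.11 CPM at 24 months. Both genes were highest in mouse 11 and lowest in mouse 17 among the young, and highest in mouse 2 and lowest in mouse 4 among the old. Between the ages the log2 fold change was -0.03 for Mt1 (-0.36 to 0.30; adjusted p = 0.910; 0.16 under library totals) and 0.01 for Mt2 (-0.39 to 0.41; adjusted p = 0.980), or 0.11 and 0.15 relative to the median gene.

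Within an age the highest mouse had 1.45 times the Mt1 CPM of the lowest at 6 months and 1.25 times at 24 months, and 1.36 and 1.39 times the Mt2 CPM. The within-age SD of log2 CPM was 0.23 for each gene, against a median of 0.16 over genes of at least 1 CPM and, among the 10 genes, 0.20 for Sod2 and 0.06 for Gpx1 and Prdx6. Sod2 had the wider range at 6 months, with a ratio of 1.48. Counting error is small beside the spread of Mt1, whose coefficient of variation at 6 months was 20.2% where counting alone gives 2.02%, and larger for Mt2 (15.4% and 7.72%). Leaving out single libraries moved the difference of Mt1 between -0.13 and 0.18 and that of Mt2 between -0.11 and 0.14, so the sign of neither is fixed by these mice.

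**Figure D3:**
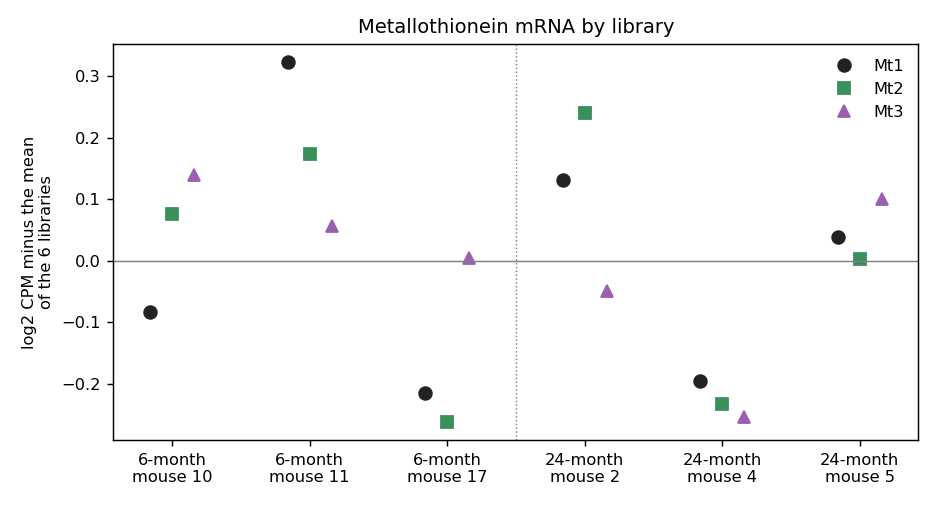
Log2 CPM of Mt1, Mt2 and Mt3 in each library minus the gene's mean over the 6 libraries (y axis), with 6-month-old mice left and 24-month-old mice right of the dotted line. Mt1 and Mt2 are both high in mice 11 and 2 and both low in mice 17 and 4. Within each age Mt3 too is lowest in mice 17 and 4, but it is highest in mice 10 and 5.

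The count ratio of Mt1 to Mt2 was 12.8 to 15.8 at 6 months and 13.2 to 14.7 at 24 months. An antisense gene, Gm45774, covers 432 of the 588 exonic bases of Mt2 (73.5%) and received 20 to 29 counts. The options stated for featureCounts name no strand setting, so its unstranded default was assumed. Under that default reads of the pair cannot be told apart, and the level of Mt2 beside Mt1 is uncertain. Mt3 (chr8:94152607-94154146), the neuronal relative of the same cluster, had 82.2, 77.6 and 74.9 CPM at 6 months and 72.1, 62.6 and 80.0 CPM at 24 months, and its difference of -0.13 on the log2 scale (adjusted p = 0.441) turned to 0.06 under library totals. Its mice were not ordered like those of Mt1 and Mt2.

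By the root mean square difference of centred log2 CPM over the 6 libraries, the genes most like Mt1 among 15760 others were Irag2 (0.0622), Rpl37 (0.0668), Stil (0.0700), Gm43162 (0.0835) and 4930506C21Rik (0.0835), with Mt2 at rank 21 (0.104) and Mt3 at rank 851. Those most like Mt2 were 4930512B01Rik (0.0636), Pcsk4 (0.0746), Bola2 (0.0746), Gng13 (0.0783) and Gm29054 (0.0830), with Mt1 at rank 19 and Mt3 at rank 487. These names describe a likeness of values only. The astrocyte marker Gfap, which marks astrocyte reactivity, was called higher at 24 months (log2 fold change 0.69, adjusted p = 0.0738), although mouse 5, at 164 CPM, lay within the 6-month range of 131 to 174 CPM. The other 5 astrocyte markers were not called and had negative values, from -0.40 for Aqp4 to -0.0077 for Gjb6, under TMM scaling. All 6 summed to 1827 to 1923 CPM at 6 months and 1736 to 1806 CPM at 24 months.

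Compared with each other per exonic length, in TPM, a level divided by exonic length and library size, the 10 genes kept the same order at both ages. Prdx6 stood at 259 ± 5.13 TPM at 6 months and 267 ± 16.3 TPM at 24 months, followed by Gpx4 (248 ± 14.3 and 264 ± 6.86), Mt1 (210 ± 43.3 and 222 ± 25.4) and Gpx1 (164 ± 8.70 and 145 ± 0.417). The middle of the order was held by Sod1 (79.2 ± 7.18 and 86.1 ± 4.36), Sod2 (72.5 ± 13.9 and 77.6 ± 2.75) and Cat (68.0 ± 4.56 and 61.4 ± 1.38). The lowest levels were those of Mt2 (30.7 ± 4.76 and 33.4 ± 5.55), Nqo1 (11.6 ± 0.549 and 13.9 ± 1.25) and Hmox1 (8.40 ± 0.662 and 7.75 ± 0.421; SD, n = 3 for each value). The mice of neighbouring genes overlapped at 6 months for Prdx6 and Gpx4, Gpx4 and Mt1, Sod1 and Sod2, and Sod2 and Cat, and at 24 months for Prdx6 and Gpx4 alone. Over the 6 libraries Prdx6 ranked 599 and Hmox1 10484 of 55421 genes. The length is that of all annotated exons together, so a gene with long alternative exons, such as Sod2 with 10008 exonic bases, has a lower TPM than its main transcript would give.

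**Figure D4:**
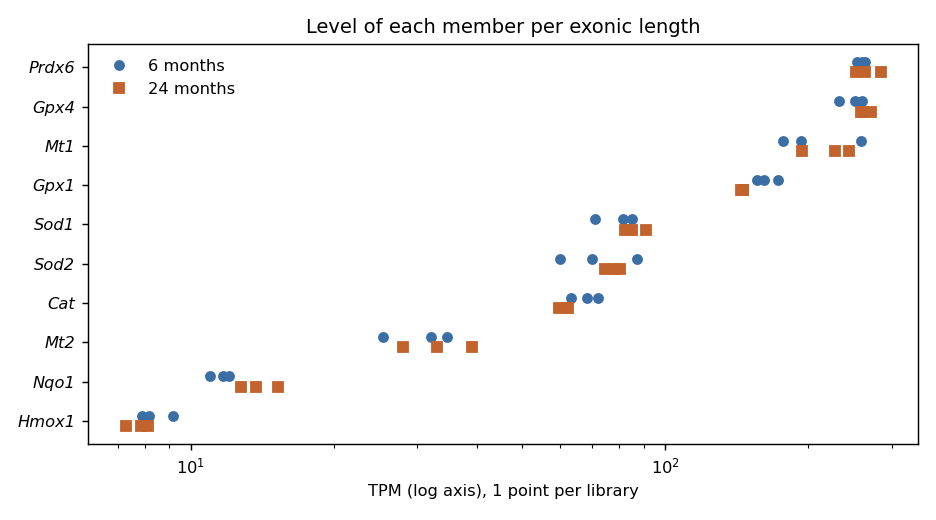
TPM of each gene (x axis, log scale), 1 point per library, 6-month-old mice in blue and 24-month-old mice in orange. Levels run from 7.29 TPM for Hmox1 to 285 TPM for Prdx6, and the order of the gene means is the same at both ages.

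Around these genes, 117 others of 7 related lists were examined, of which 116 were tested. At 10% FDR 4 were higher and 13 lower at 24 months. Among the 104 of at least 1 mean CPM the counts were 1 higher and 13 lower, against 2.43% and 17.3% of such genes, and the median was 0.01 relative to the median gene. All 13 lower calls were lost with library totals, upper quartile factors, TMM on genes of at least 1 CPM or edgeR's filterByExpr, each of which left 0 lower. Leaving out 1 library at a time gave 0 to 6 higher and 0 to 17 lower calls, and only without 24-month-old mouse 5 did either count exceed that with all libraries. The calls that follow are those under TMM scaling of all genes tested.

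Of 13 other superoxide dismutase, glutathione peroxidase and peroxiredoxin genes 1 was higher and none lower, beside 10.0% and 8.33% of all genes tested. Unadjusted p-values of the quasi-likelihood test were under 0.05 for 4, against 30.7% of all genes tested. The higher one was Gpx5, a secreted peroxidase known from the epididymis. It rested on 3, 1 and 3 counts in the young and 16, 9 and 7 in the old mice. Its level was 0.0290 to 0.0973 CPM in the young and 0.206 to 0.493 CPM in the old. At its exonic length the sensory receptor density gives 0.0374 to 0.0419 and 0.0892 to 0.144 CPM. Sod3, the extracellular dismutase, had 14.3 ± 0.177 and 13.9 ± 1.43 CPM (adjusted p = 0.857).

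The thioredoxin system, which reduces peroxiredoxins and other oxidised proteins, had 2 lower of 15 genes, beside 17.3% of genes of at least 1 CPM. Txn1, cytosolic thioredoxin, had 57.2, 57.9 and 55.3 CPM at 6 months and 47.4, 43.5 and 44.8 CPM at 24 months. Every old mouse lay below every young mouse, as in 32.5% of genes of at least 1 CPM under TMM scaling. The log2 fold change of Txn1 was -0.33 (adjusted p = 0.0626). Txnrd1, the reductase that recharges it, had a log2 fold change of -0.29 (adjusted p = 0.0846). Relative to the median gene these differences were -0.19 and -0.15. Srxn1, which repairs overoxidised peroxiredoxins, had a log2 fold change of -0.01 (adjusted p = 0.986) that was positive under library totals (0.19), with mouse 17 at 144 CPM far above the other young mice at 82.4 and 92.8.

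Of 21 genes of glutathione synthesis, recycling and transfer 2 were lower, beside 17.3% of genes of at least 1 CPM. The 2 were Chac2 (-0.46, adjusted p = 0.0646), which breaks down glutathione, and Hagh (-0.25, adjusted p = 0.0891), a glyoxalase of the methylglyoxal pathway. The rate-limiting ligase subunits were not called. Gclc had 0.15 (adjusted p = 0.400), with all old mice above all young, as in 5.32% of genes of at least 1 CPM. Gclm had -0.15 (adjusted p = 0.327), and 0.05 under library totals. The cystine importer Slc7a11 had 0.24 (adjusted p = 0.424).

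Of 19 regulators of the Nfe2l2 pathway and enzymes of NADPH supply 18 had at least 1 CPM, and 2 of these were lower, beside 17.3% of such genes. The 2 were Sqstm1 (-0.25, adjusted p = 0.0843), the autophagy receptor that binds Keap1, and Idh1 (-0.32, adjusted p = 0.0747), a cytosolic source of NADPH. Nfe2l2 itself had 17.5 ± 1.08 and 16.6 ± 0.829 CPM (-0.08, adjusted p = 0.654; 0.11 under library totals), and its repressor Keap1 67.4 ± 4.66 and 67.6 ± 1.89 CPM (0.00, adjusted p = 0.984). Of 14 genes of haem and iron handling 0 were called at 10% FDR by edgeR's quasi-likelihood test, beside 18.4% of all genes tested. Unadjusted p-values of that test were under 0.05 for 3 of the 14, against 30.7% of all genes tested. The likelihood ratio, exact, DESeq2 and limma tests also called 0 of the 14, though limma called only 20 genes higher and 4 lower in all. The constitutive haem oxygenase Hmox2 was 1 of the 14, with -0.15 (adjusted p = 0.349; 0.05 under library totals).

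The 23 metallothionein relatives and zinc genes, of which 22 were tested, held 6 lower calls and 1 higher, beside 8.33% lower and 10.0% higher among all genes tested. Among the 21 of at least 1 CPM 6 were lower and 0 higher, beside 17.3% and 2.43% of all such genes. Whether the list differs from other genes was not tested. Mtf1, the zinc-sensing factor, whose binding was not measured here, had 29.1, 30.2 and 26.8 CPM at 6 months and 22.1, 20.8 and 23.4 CPM at 24 months. The old mice were all below the young, as in 32.5% of genes of at least 1 CPM. The log2 fold change was -0.37 (SE 0.11, adjusted p = 0.0644), or -0.23 relative to the median gene. The zinc importers Slc39a6 (-0.41, adjusted p = 0.0561) and Slc39a10 (-0.42, adjusted p = 0.0582) were also lower. Slc39a4 was higher on 3 to 24 counts per library, at 0.0973 to 0.336 and 0.493 to 0.694 CPM. At its exonic length the sensory receptor density gives 0.0694 to 0.0778 and 0.165 to 0.266 CPM. Mt1 and Mt2 differed by -0.03 and 0.01 in the same libraries.

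Of 12 genes of the NADPH oxidase complex, a source of superoxide, 2 were higher and 1 lower. Among all genes tested the shares were 10.0% higher and 8.33% lower. Of the 7 genes of the complex with at least 1 CPM, 1 was higher and 1 lower, with a median of 0.30. Among all genes of at least 1 CPM the shares were 2.43% and 17.3%. Cybb, the catalytic subunit of phagocytes and in brain of microglia, was counted 16, 38 and 29 times in the young and 43, 67 and 46 times in the old mice (0.87, adjusted p = 0.0928). Nox4 was called higher on fewer counts, 7 to 17 against 19 to 37 (1.31, adjusted p = 0.0733). Its level was 0.203 to 0.519 CPM in the young and 0.559 to 1.07 CPM in the old mice. At the exonic length of Nox4 the sensory receptor density gives 0.189 to 0.212 and 0.451 to 0.727 CPM, a difference in the same direction. For Cybb that density gives 0.130 to 0.146 and 0.309 to 0.498 CPM, beside levels of 0.519 to 1.10 and 1.33 to 1.94 CPM. The lower gene was Rac1 (-0.26, adjusted p = 0.0798), a GTPase with many other roles. The 5 microglial markers summed to 276 to 290 CPM at 6 months and 247 to 291 CPM at 24 months, with Tmem119 called higher and Csf1r lower, and their part in the Cybb value was not tested.

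**Figure D5:**
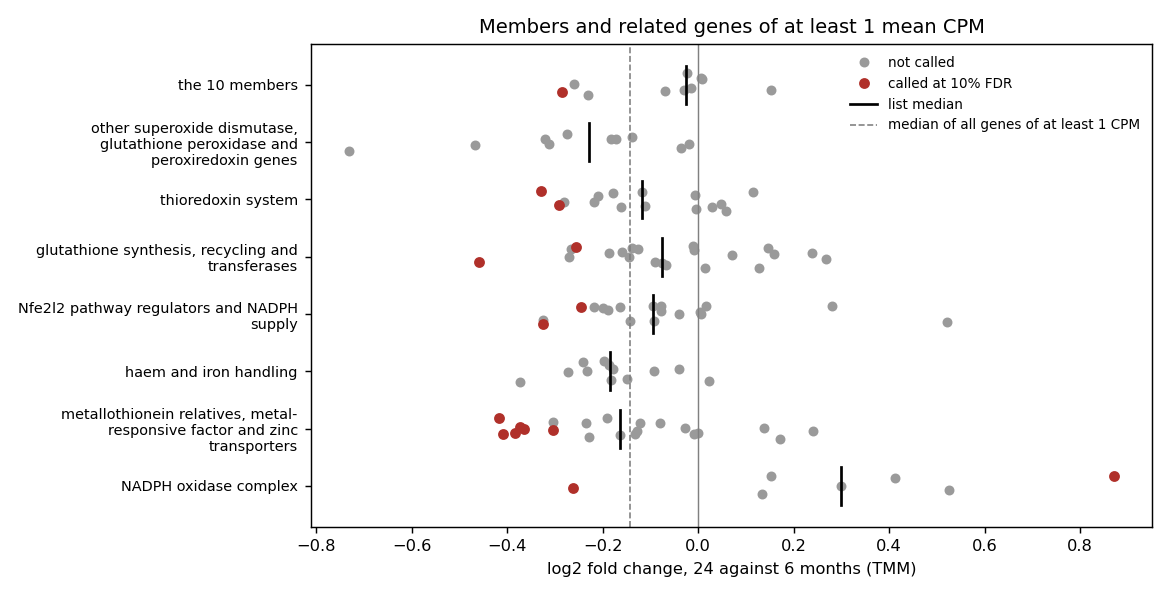
Log2 fold change at 24 against 6 months (x axis, TMM scaling) of the 10 genes and of the related genes with a mean of at least 1 CPM, 1 point per gene, with genes called at 10% FDR in red and list medians as bars. The 10 genes centre at -0.03, right of the dashed median of all such genes at -0.14, and red points to the left of 0 are all lost with library totals.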

How the data were processed

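Cortical RNA of 6 mice (10 ng per library, NEBNext low-input kit, 75-base reads) was processed by the authors with Trim Galore 0.6.4, STAR 2.7.3a on GRCm38 and featureCounts of Subread 2.0.0, giving deposited counts per gene and deposited TPM values, the latter per length of all annotated exons. Counts were used as deposited. Genes whose counts summed to 10 or more were tested in edgeR 4.0.16 (TMM, quasi-likelihood test, no covariate) under R 4.3.3, with Benjamini-Hochberg adjustment over all genes tested. DESeq2 1.42.0 and limma 3.58.1 on log2(TPM + 1) were alternatives. The code was tested on simulated data. The 10 genes, the related lists and the tests were chosen with earlier results of these data known. Named from the lists are genes called at 10% FDR (at most 5 per list, otherwise the leading 2 in each direction) and the nearest relatives or regulators of the 10 genes. Intervals cover the spread between these mice, and depth bears on counting error only. Exon lengths and overlaps come from an earlier GENCODE release of the same build, promoter windows from RefSeq.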

Additional observations from a re-analysis of the deposited data

How the results depend on the processing

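Under the alternatives run, the 10 genes kept direction and side of the 10% FDR threshold in 119 of 170 comparisons, lost the Gpx1 call in 15 and reversed sign in 36, none of them past the threshold; the named related genes did so in 189, 156 and 37 of 382. Gpx1 was the only one of the 10 genes called, and RLE size factors kept that 1 call while 0 were called by the likelihood ratio, exact, DESeq2 and both limma tests, with library totals, upper quartile factors, TMM on genes of at least 1 CPM, filterByExpr or no filter (0 to 1 with a library left out). Of all genes tested, 3299 were higher and 2741 lower; the likelihood ratio test gave 5302 higher, DESeq2 1340 higher and 1708 lower, filterByExpr 1108 and 430, limma on log2(TPM + 1) 20 and 4, and limma on log2(TPM + 0.1) 15 and 3. Lower calls were 318 with library totals, 402 with upper quartile factors, 458 with TMM on genes of at least 1 CPM and 1377 without a filter. Leaving out a library gave 0 to 4364 higher and 0 to 3634 lower, with none in either direction without 6-month-old mouse 10 or 24-month-old mouse 4. Of the related genes, 4 were higher and 13 lower; higher calls were 7 by the likelihood ratio test, 7 by the exact test, 6 with library totals, 1 by DESeq2, 1 with filterByExpr and 0 by both limma tests, and lower calls 9 by the likelihood ratio test, 8 by the exact test, 7 by DESeq2, 8 with RLE size factors, 3 without a filter and 0 with library totals, upper quartile factors, TMM on genes of at least 1 CPM, filterByExpr or limma (0 to 6 higher and 0 to 17 lower with a library left out). Log2 fold changes that reversed in sign follow. With library totals the values were Sod2 0.18, Gpx4 0.17, Prdx6 0.12, Mt1 0.16, Mt3 0.063, Nfe2l2 0.11, Sod3 0.15, Hmox2 0.046, Gclm 0.045 and Srxn1 0.19. With upper quartile factors the values were Sod2 0.13, Gpx4 0.13, Prdx6 0.084, Mt1 0.12, Mt3 0.023, Nfe2l2 0.077, Sod3 0.11, Hmox2 0.0038, Gclm 0.0083 and Srxn1 0.16. With TMM on genes of at least 1 CPM the values were Sod2 0.14, Gpx4 0.13, Prdx6 0.087, Mt1 0.13, Mt3 0.027, Nfe2l2 0.079, Sod3 0.12, Hmox2 0.0087, Gclm 0.0097 and Srxn1 0.15. With filterByExpr the values were Sod2 0.098, Gpx4 0.091, Prdx6 0.045, Mt1 0.085, Nfe2l2 0.037, Sod3 0.075 and Srxn1 0.11. Without a filter the values were Sod2 0.022, Gpx4 0.014, Mt1 0.0090, Sod3 1.3e-05 and Srxn1 0.034. With limma on log2(TPM + 1) the values were Sod2 0.11, Gpx4 0.091, Prdx6 0.043, Mt1 0.096, Nfe2l2 0.034, Sod3 0.067 and Srxn1 0.15. With limma on log2(TPM + 0.1) the values were Sod2 0.12, Gpx4 0.091, Prdx6 0.043, Mt1 0.097, Nfe2l2 0.036, Sod3 0.071 and Srxn1 0.15. With RLE size factors the value was Srxn1 0.0068. With DESeq2 the value was Srxn1 0.0069. Leaving out a library gave -0.032 to 0.064 for Sod1, -0.10 to 0.15 for Sod2, -0.035 to 0.018 for Gpx4, -0.13 to 0.18 for Mt1, -0.11 to 0.14 for Mt2, -0.031 to 0.10 for Keap1, -0.10 to 0.049 for Sod3 and -0.16 to 0.28 for Srxn1. The cause of these changes was not tested. No paired analysis was possible because the labels number the mice of the ages differently. Depth limits most the values of Nqo1, Hmox1 and Mt2, which had 116 to 215 counts per library, and 5745 adjusted p-values that DESeq2 did not give were left out of its counts.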
